A study of Mus musculus with 4 samples.

Results

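The genes described here encode the core proteins of the spliceosome and the RNA-binding proteins that steer it: SR proteins, heterogeneous nuclear ribonucleoproteins (hnRNPs), small nuclear ribonucleoprotein (snRNP) subunits, SF3A, SF3B and U2AF subunits and numbered pre-mRNA processing factors (Prpf). The rule that chose them uses name and biotype and no measured value, and it leaves out Hnrnpd. It was set with earlier results of these data known. The rule found 65 protein-coding genes listed in both deposited tables, out of 17995 genes listed in either table and 14652 in both. By role they were 11 SR proteins, 19 hnRNPs, 7 Sm core proteins, 4 proteins of the U1 or U2 snRNP, 11 factors of the 3′ splice site and branch site, and 13 Prpf proteins.

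The 4 sequenced libraries hold mouse platelet RNA, 1 library per group, each from the pooled platelets of 7 male mice. The library labelled cKO came from mice with a conditional knockout of HuR, the RNA-binding protein encoded by Elavl1, at 3 months of age, and was set against WT littermates of the same age. The Old library came from wild-type mice at 24 months of age, and was set against Young wild-type mice at 3 months. The promoter that drives the deletion in the cKO mice was not given in the sources used here.

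Splicing removes introns from pre-mRNA in the nucleus. SR proteins mostly promote exon recognition and hnRNPs often oppose it. U2AF and the SF3A and SF3B subunits of the U2 snRNP recognise the end of the intron and the branch site, and the Prpf proteins build, activate and recycle the spliceosome. Platelets have no nucleus and inherit their messenger RNAs and part of the splicing machinery from megakaryocytes. They are known to splice some inherited pre-mRNAs when activated.

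Recovered reads totalled 17702341 in the library labelled cKO, 17978384 in WT, 18472149 in Old and 18145612 in Young. With a single library per group no difference could be set against replicate spread, and the exact 95% intervals below cover only the error of counting reads. The words rose and fell are kept for genes with 100 reads or more in the larger library whose interval stayed at least 2-fold away from a ratio of 1. None of the 14 platelet markers was at 0 in any library. Elavl1 had 1481 reads in the library labelled cKO, against 876 in WT, and 527 in Old, against 621 in Young. It was thus not lower in the library labelled cKO (ratio 1.66, interval 1.53 to 1.81). Every direction given for that library is therefore that of its label and is not read as an effect of HuR loss, which was not tested.

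Promoter sequence upstream of the RefSeq start is shown for 2 of the 4 members that fell in Old against Young, Hnrnpa0 and Prpf19, whose RefSeq start is also the deposited gene start. They are shown because both members fell in Old against Young, so that a reader can set their upstream sequences side by side. The 2 genes did not move alike in cKO over WT (ratios of 2.18 for Hnrnpa0 and 0.892 for Prpf19) or in WT over Young (0.455 and 1.25). Each run is the 250 bases before the start, 5′ to 3′ on the strand of the gene, from the RefSeq promoter table (build GRCm38.p6). Capitals mark matches, on either strand, to CCGGAAG (the core of ETS family sites) or CCAAT (the box bound by NF-Y). The windows lie at chr13:58128557-58128806 (minus strand) for Hnrnpa0 and chr19:10894981-10895230 (plus strand) for Prpf19.
Hnrnpa0: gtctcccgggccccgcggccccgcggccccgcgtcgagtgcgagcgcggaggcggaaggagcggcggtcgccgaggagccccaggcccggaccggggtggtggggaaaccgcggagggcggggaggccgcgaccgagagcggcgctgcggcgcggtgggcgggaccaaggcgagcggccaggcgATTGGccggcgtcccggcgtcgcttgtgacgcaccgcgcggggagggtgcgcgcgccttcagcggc
Prpf19: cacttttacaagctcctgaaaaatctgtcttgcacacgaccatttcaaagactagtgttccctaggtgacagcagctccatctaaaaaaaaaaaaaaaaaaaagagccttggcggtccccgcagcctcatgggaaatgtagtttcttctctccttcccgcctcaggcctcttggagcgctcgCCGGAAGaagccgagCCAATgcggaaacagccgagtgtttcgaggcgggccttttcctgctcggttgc
Hnrnpa0 held a CCAAT match and Prpf19 a match to each, and no matches overlapped. The Hnrnpa0 window was 81.2% G or C with 46 CG dinucleotides. The Prpf19 window was 51.2% G or C with 13 CG dinucleotides, so the windows did not share one base composition.

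Of the 65 genes, 56 had an entry in the promoter table, with 74 promoters. CCGGAAG lay in 28.4% of them, against 13.2% of promoters of protein-coding genes listed in both tables and 6.91% of all promoters of that length. CCAAT lay in 48.6%, against 35.2% and 33.8% of the same 2 sets. The palindrome CACGTG lay in 9.46% (8.05% and 6.02%), TATAAA in 6.76% (6.73% and 12.4%), and the palindromic core of NRF1 sites in 1.35% (1.58% and 0.782%). The median window held 20.5 CG dinucleotides, against 15 in protein-coding genes and 6 in the whole table. The shares holding CCGGAAG or CCAAT and the CG counts were thus above those of both other sets, which describes sequence and not binding.

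On the length-scaled level (RPKM, reads scaled to a library of 1000000 reads, or RPM, divided by the deposited gene length in kilobases), the mean over the 4 libraries had a median of 2.75 over the 65 genes, against 0.989 over 12284 protein-coding genes. The range was wide in every role. Hnrnpc, which binds uridine tracts in nascent transcripts, had the highest mean (36.5 RPKM), with 34.5 RPKM in the library labelled cKO, 49.8 in WT, 24.0 in Old and 37.8 in Young. Srsf2, an SR protein that binds exonic enhancers, had 42.1, 36.6, 25.6 and 36.2 RPKM in the same order, and was above Hnrnpc in the library labelled cKO and in Old. The next genes by mean RPKM were Hnrnpf (25.6), Hnrnpa1 (23.1) and Hnrnpa0 (22.2), all hnRNPs.

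Each of the other roles had its own leading gene by mean RPKM. Sf3b2, an SF3B subunit, led the branch site factors with 18.3 RPKM, and Sf3b5, a small SF3B subunit, was lowest among them with 1.36. Prpf8, the scaffold at the centre of the spliceosome, had 16.6 RPKM. Snrpb led the Sm core proteins with 8.52 RPKM and Snrpf was lowest with 0.646. Among the U1 and U2 proteins Snrpb2, a U2 protein, led with 1.85 RPKM and Snrpa1, its partner in the U2 snRNP, was lowest with 0.471. Hnrnpll, known in lymphocytes as a regulator of Ptprc splicing, was the lowest hnRNP with 0.282 RPKM.

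Srsf12 and Prpf40b were close to absent. Srsf12 had 3 reads in the library labelled cKO, 0 in WT, 2 in Old and 4 in Young. Prpf40b had 1, 6, 0 and 7 reads in the same order. A count of 0 allows up to 3 reads, and both genes lay far under the minimum of 100 reads, so no call was made for them.

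**Figure D1:**
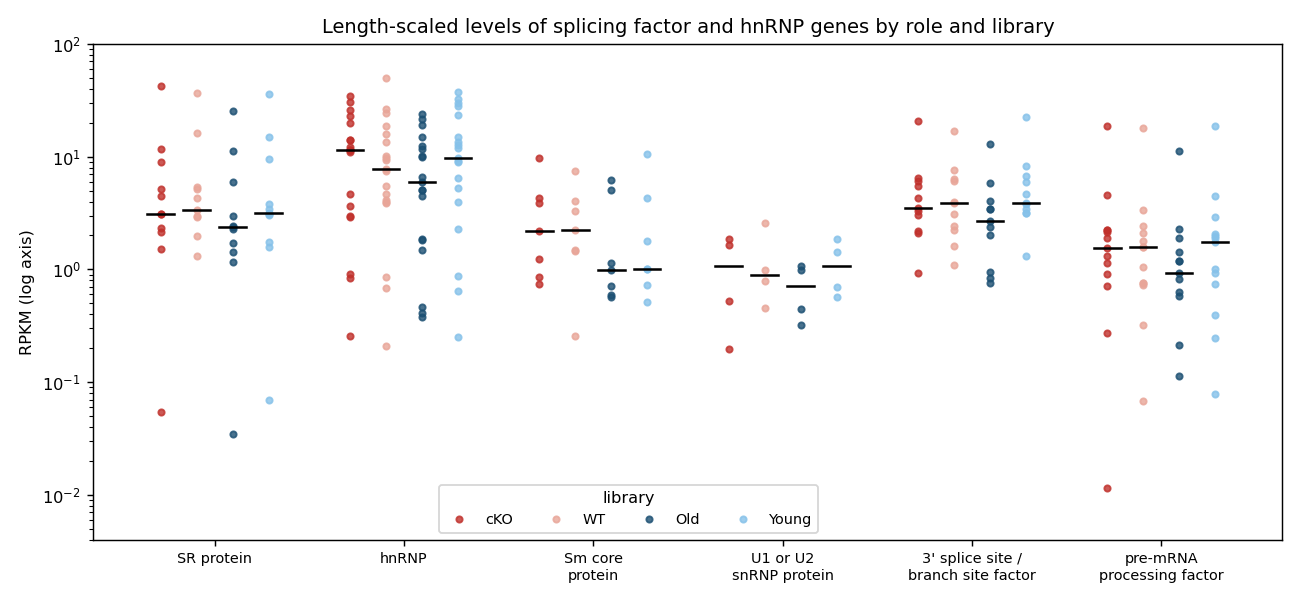
Length-scaled level (RPKM, log axis) of each of the 65 genes by role, with 1 point per gene and library and a black bar at the median of the role. Genes at 0 reads are not drawn. The hnRNP medians are 11.5 RPKM in the library labelled cKO, 7.84 in WT, 5.99 in Old and 9.79 in Young.

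Old was compared with Young to ask how platelet RNA differs with age. Most splicing genes were lower in Old, mostly by less than 2-fold. Of 44 members that reached 100 reads in the larger library, 4 fell (Sf3a3, Prpf19, Hnrnpdl and Hnrnpa0), or 9.09%, against 4.3% of all 6519 genes tested, and 0 rose, against 4.26%. The ratio was below 1 for 41 of the 44 (93.2%), against 53% of all genes. The whole interval lay below 1 for 36 (81.8%), against 40.5% of all genes. The median log2 ratio was -0.42 over 62 members with at least 20 reads in both libraries together, against -0.06 over all such genes.

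Summed over the 65 genes, the level in RPM was 1405 in Old, against 2167 in Young. After scaling, the ratio of these sums was 0.723 (interval 0.712 to 0.734). In bulk samples, fewer cells of a type and less RNA per cell cannot be told apart. The difference was not limited to the members that fell. With a bound of 1.5-fold in place of 2-fold, 11 of the 44 were lower (25%), against 12.9% of all genes, and 0 were higher, against 10.4%.

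**Figure D2:**
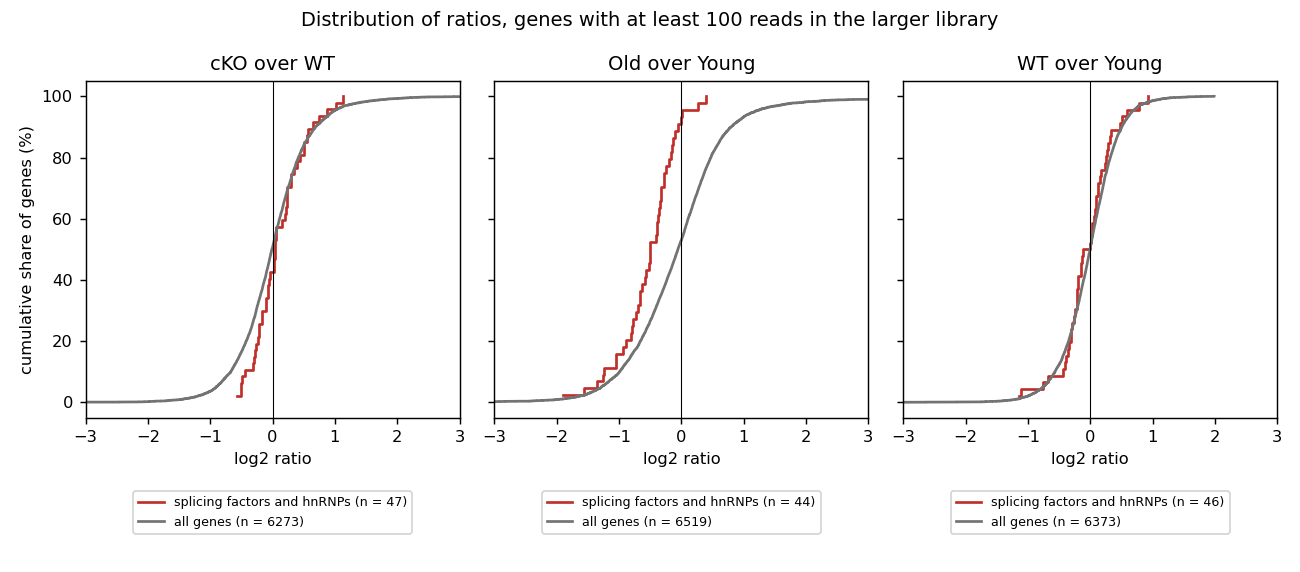
Cumulative share of genes (%) by log2 ratio for the 65-gene set (red) and all genes (grey) that reached 100 reads in the larger library, in 3 comparisons. The red curve lies left of the grey one in Old over Young, where 93.2% of the set and 53% of all genes are below 0, and near it in cKO over WT and WT over Young.

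Factors of the 3′ splice site and branch site were below 1 in 9 of 9 tested members, with a median log2 ratio of -0.40 over the 11. With WT in place of Young, 7 of 9 tested members were below 1 and 2 were above. Sf3a3 (ENSMUSG00000028902, mm10 chromosome 4, 124714776 to 124732460, plus strand), a subunit of the SF3A complex, fell to 39 reads in Old, against 161 in Young. It was 3.77-fold lower in Old (interval 2.64 to 5.50). The other 3 libraries, all from mice of 3 months, had 151 to 161 reads. Sf3b3, an SF3B subunit, had 408 reads in Old and 921 in Young (ratio 0.485, 0.431 to 0.546), short of the rule, which it passed when library sizes were total reads or were set by equal platelet marker reads.

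Sf3b1, the SF3B subunit that clamps the branch site, had 855 reads in Old and 1235 in Young (ratio 0.758, 0.694 to 0.828). U2af2, the subunit that binds the polypyrimidine tract, had 445 and 614 reads (ratio 0.794, 0.701 to 0.898). Its partner U2af1, which reads the terminal AG of the intron, had 15 reads in Old and 56 in Young. That ratio of 0.293 became 0.606 (0.392 to 0.925) when reads of its near-identical copy were added, so that the value depends on how reads were shared between the copies. Sf3b6, which sits at the branch site, was closest to no difference, with 180 reads in Old and 199 in Young (ratio 0.990).

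Among the Prpf proteins 7 of 8 tested members were below 1, and the median log2 ratio of -0.58 over 12 was the lowest of the 6 role medians. Prpf19 (ENSMUSG00000024735, chromosome 19, 10895231 to 10909559, plus strand), the ubiquitin ligase of the complex that activates the spliceosome, fell to 85 reads in Old, against 275 in Young. It was 2.95-fold lower in Old (2.31 to 3.81), and the library labelled cKO and WT had 286 and 315 reads, so Old stood below all 3 other libraries. Prpf6 and Prpf8 had ratios of 0.574 and 0.672. Prpf38b was the exception, with 244 reads in Old and 223 in Young (ratio 1.198, 0.995 to 1.44).

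All 17 tested hnRNPs were below 1, with ratios between 0.392 (Hnrnpdl) and 0.934 (Hnrnpul2) and a median log2 ratio of -0.40 over 19. With WT in place of Young, 13 of 17 tested hnRNPs were below 1 and 4 were above. Hnrnpdl (ENSMUSG00000029328, chromosome 5, 100033577 to 100039664, minus strand), a paralogue of the AU-rich element binder Hnrnpd, fell to 167 reads in Old, against 466 in Young. It was 2.55-fold lower in Old (2.13 to 3.06), and the library labelled cKO and WT had 312 and 361 reads. Old was thus lowest of the 4 for this gene as well.

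Hnrnpa0 (ENSMUSG00000007836, chromosome 13, 58125879 to 58128556, minus strand), an hnRNP A/B protein that binds AU-rich RNA, fell to 611 reads in Old, against 1574 in Young. It was 2.35-fold lower in Old (2.14 to 2.59). This fall depended on which wild-type library of 3 months was used: WT had 655 reads, and Old over WT was 0.935 (0.836 to 1.05). The 4 libraries split into a high pair, the library labelled cKO (1453) and Young (1574), and a low pair, WT and Old. Hnrnpab, another A/B protein, showed the same split, with 569 reads in the library labelled cKO, 275 in WT, 308 in Old and 646 in Young.

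Hnrnpa3 had 149 reads in Old and 389 in Young (ratio 0.419, 0.345 to 0.508), just short of the rule, which it too passed under both of those scalings. With the reads of its 9 listed near-identical copies added it was 320 in Old and 832 in Young, and passed it (ratio 0.421, 0.369 to 0.480). Hnrnpa1, a classic splicing repressor, had 867 reads in Old and 1618 in Young (ratio 0.587, 0.540 to 0.638). Hnrnpk, which binds cytosine-rich RNA, was closer to 1, with 2275 and 2757 reads (ratio 0.904, 0.854 to 0.955). Hnrnpll went the other way at low counts, with 89 reads in Old and 53 in Young.

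**Figure D3:**
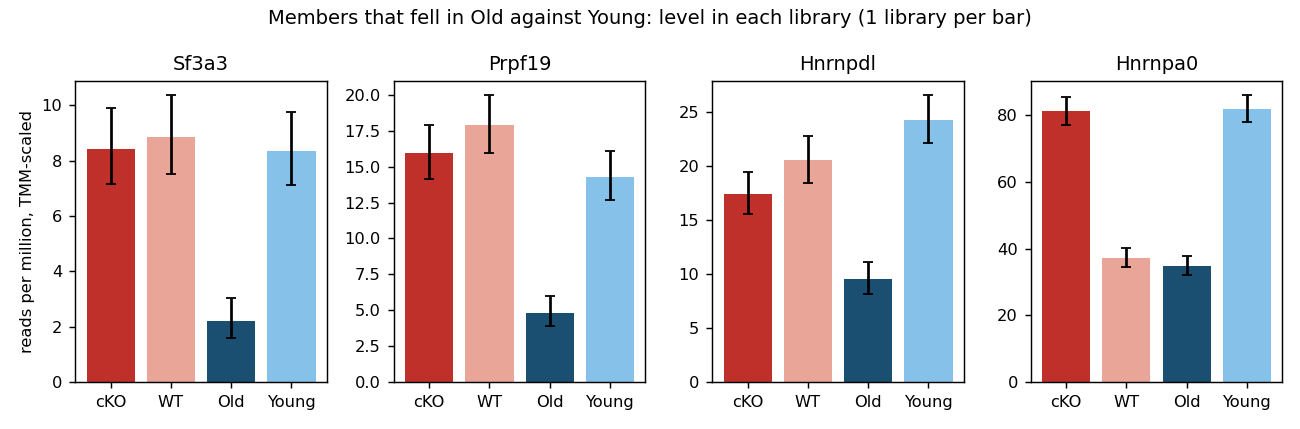
RPM after TMM scaling over the 4 libraries for the 4 genes that fell in Old against Young, with 1 library per bar and exact Poisson 95% counting intervals. Sf3a3, Prpf19 and Hnrnpdl are lowest in Old alone, while Hnrnpa0 is low in both Old (34.8) and WT (37.2) and high in the library labelled cKO (81.2) and Young (81.8).

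SR proteins were also mostly lower in Old. Of 8 tested, 7 were below 1 and none passed the rule, with a median log2 ratio of -0.31 over 10. Srsf3, which also acts in mRNA export, had 248 reads in Old and 450 in Young (ratio 0.603). Srsf2 had 1400 and 1944 reads (ratio 0.789, 0.736 to 0.845). Srsf1, the founding member of the family, had 313 and 354 reads, a difference not detectable at this depth (ratio 0.968, 0.829 to 1.13). Srsf4 had 94 and 102 reads (ratio 1.01).

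The Sm core proteins, which form the ring around the snRNAs, had a median log2 ratio of 0.003 over 6 members. With WT in place of Young that median was -0.43 over 6 members, so it depended on the wild-type library used. Only 2 of the 7 had enough reads. Snrpd2 had 245 reads in Old and 204 in Young (ratio 1.32, 1.09 to 1.59), and it was the 1 member of 44 whose interval lay above 1 (2.27%, against 35.6% of all genes). Snrpb, another ring subunit, had 225 and 381 reads (ratio 0.647, 0.546 to 0.764). None of the 4 U1 and U2 proteins reached 100 reads in Old or Young, and their summed reads were 184 in Old and 288 in Young (ratio 0.700, 0.578 to 0.845).

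**Figure D4:**
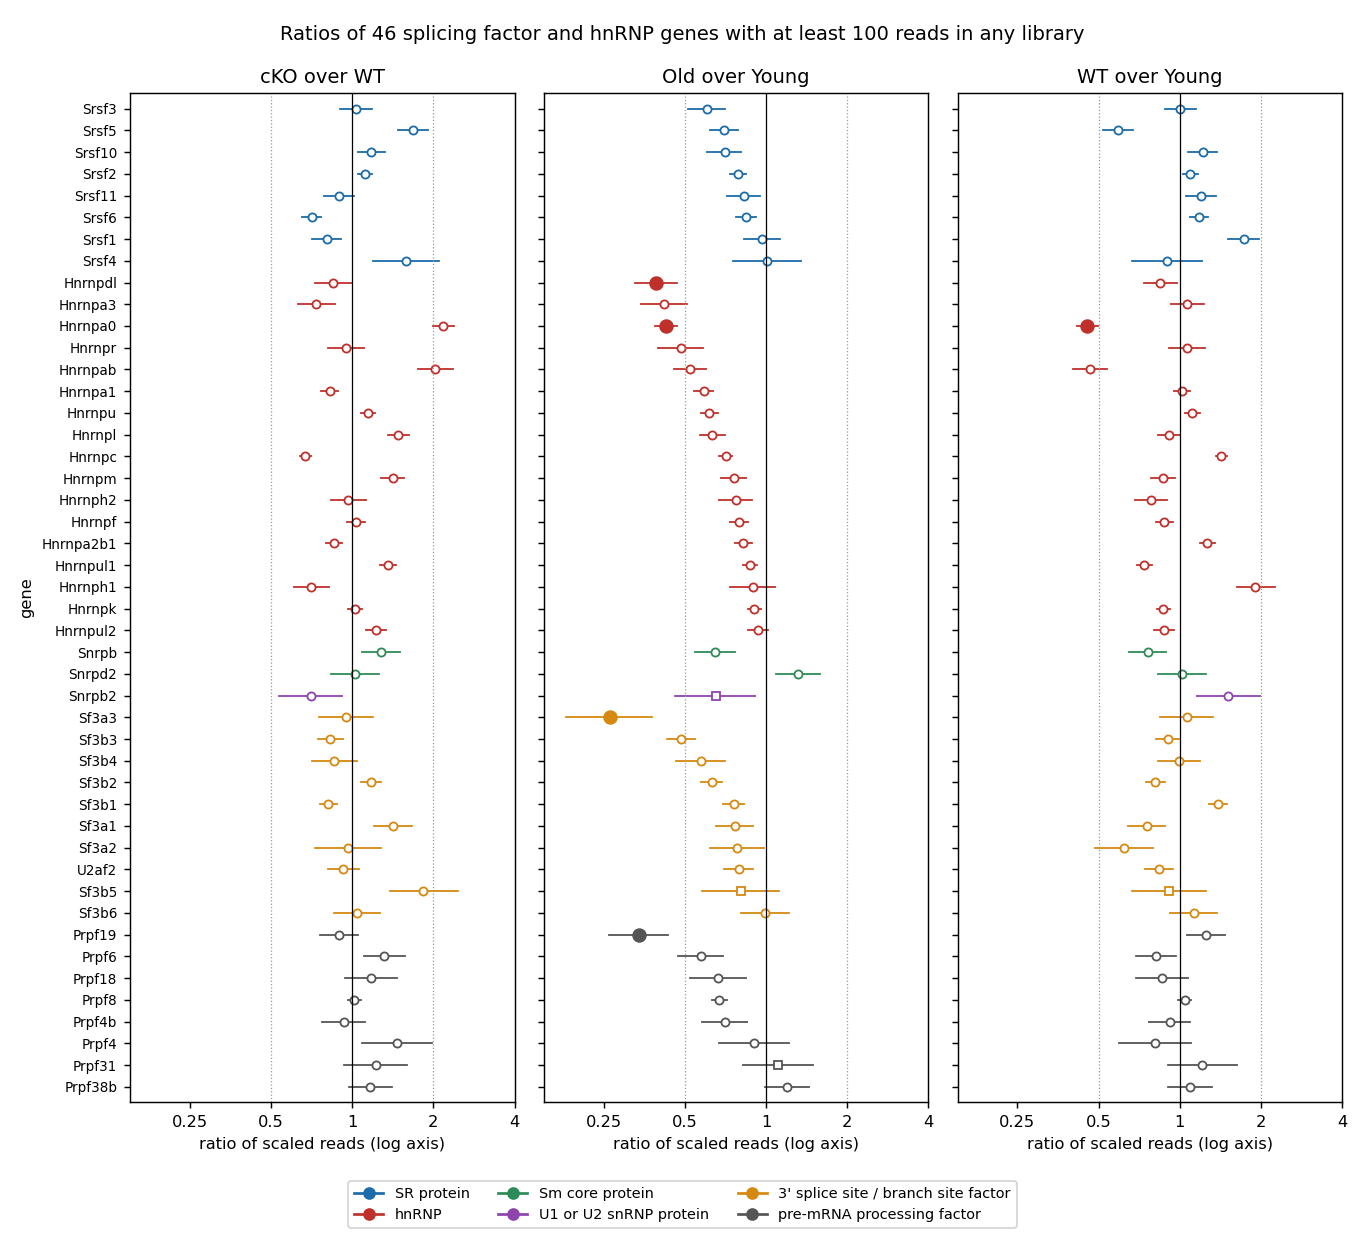
Ratio of scaled reads (log axis) of 46 of the 47 genes with at least 100 reads in any library, with exact 95% counting intervals, by role and ordered by Old over Young within a role. Filled symbols passed the 2-fold rule, squares mark genes under 100 reads in both libraries of that pair, and dotted lines mark ratios of 0.5 and 2. In Old over Young most symbols lie left of 1 and 4 are filled.

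The 6 members with an adjusted p below 0.05 in the authors' deposited table for Old over Young were all lower (9.23% of 65, against 6.51% of all genes lower): Hnrnpa0, Hnrnpa3, Hnrnpdl, Prpf19, Sf3a3 and U2af1. Their adjusted p in the authors' deposited table ranged between 0.00269 for Sf3a3 and 0.0386 for Hnrnpa3. These p-values come from 1 library per group, and how the authors obtained the spread was not given in the sources used here.

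Other genes of the splicing machinery were also mostly lower in Old. Of 93 on a list of other spliceosome, exon junction and splicing regulator genes, 92 were listed and 76 were tested. None rose (against 4.26% of all genes), 5 fell (6.58%, against 4.3%) and 63 were below 1 (82.9%, against 53%). The median log2 ratio was -0.45. With WT in place of Young, 71 were tested, none rose and 1 fell (1.41%, against 4.22% of all genes). Of these 71, 59 were below 1 (83.1%, against 53%). The higher share of falls than in all genes was thus seen against Young only, while the direction was kept against WT. Slu7, which acts at the second step of splicing, fell to 143 reads in Old, against 511 in Young (3.26-fold lower, 2.71 to 3.96), and the library labelled cKO and WT both had 450. Cwc22, which brings the exon junction complex to the spliceosome, had 32 reads in Old and 162 in Young (4.62-fold lower, 3.15 to 6.98).

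Sart3, which recycles the U4 and U6 snRNPs, fell to 48 reads in Old, against 194 in Young (3.69-fold lower, 2.68 to 5.17). Smndc1, a spliceosome assembly factor related to the SMN protein, fell to 81 reads, against 244 (2.75-fold lower, 2.13 to 3.58). In these 4 genes Old was the lowest of the 4 libraries.

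Markers of other blood cells differed between Old and Young as well. The 12 neutrophil markers summed to 796 RPM in Old, against 30.6 RPM in Young, with 9 higher. Elane was at 0 or not listed in Old, as were Camp, Elane, Ltf and Mpo in Young. The 9 B cell markers summed to 80.0 RPM in Old and 292 in Young, with 6 lower and none at 0. The 12 erythroid markers summed to 11252 and 21539 with 1 lower, the 10 monocyte and macrophage markers to 2568 and 3521 with 3 higher, and the 10 T and NK cell markers to 54.0 and 92.4 with 1 lower. No erythroid or T and NK cell marker was at 0, and Cd14 was the monocyte marker at 0, in Young.

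The 14 platelet markers summed to 68068 RPM in Old and 56686 in Young, with 1 higher. The nuclear retained RNAs went against the splicing genes: they summed to 72.4 and 19.6 RPM, all of it Neat1 and Malat1, which were both higher in Old. The part of these cells and RNAs in the lower splicing gene levels was not tested.

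With WT in place of Young as the library of 3 months, the direction was kept by fewer members. The ratio of Old over WT was below 1 in 35 of 44 (79.5%), against 53% of all genes, and the median log2 ratio was -0.49. Of the 44, 0 were higher past the rule (against 4.54% of all genes) and 3 were lower (6.82%, against 4.22%): Sf3a3 (3.99-fold), Prpf19 (3.70-fold) and Hnrnpa3 (2.55-fold). Hnrnpdl had a ratio of 0.464 (0.384 to 0.558). Old was the lowest of the 4 libraries for 32 of 47 members with at least 100 reads in any library (68.1%), against 38.7% of all genes, and the highest for 1, Snrpd2 (2.13%, against 29.7%).

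The library labelled cKO was set against WT to ask how platelet RNA differs with the knockout label. No member rose or fell among 47 tested, against 2.52% of all 6273 genes that rose and 1.71% that fell. The ratio was above 1 in 27 members (57.4%, against 49.4% of all genes) and below 1 in 20 (against 50.6%). The median log2 ratio was 0.04 over 63 members, against -0.01 over all genes. Summed levels were 2111 RPM in the library labelled cKO and 1994 RPM in WT (ratio after scaling 1.02, 1.01 to 1.04).

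Single members still differed beyond counting error. Hnrnpa0 had 1453 reads in the library labelled cKO and 655 in WT (ratio 2.18, 1.99 to 2.39), just short of the rule, which it passed under 3 other scalings of library size. Against Young the same library had a ratio of 1.01 (0.942 to 1.09). Hnrnpab had a ratio of 2.03 (1.76 to 2.36) against WT and 0.966 (0.862 to 1.08) against Young. Both A/B genes thus differed from the littermate WT library and not, at this depth, from the Young library.

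Sf3b5 and 2 SR genes, Srsf5 and Srsf4, were the next highest. Sf3b5 had 142 reads in the library labelled cKO and 76 in WT (ratio 1.84, 1.38 to 2.46), and Young had 91. Srsf5 had 635 and 372 reads (ratio 1.68, 1.47 to 1.91), and Young had 689. Srsf4 had 135 and 84 reads (ratio 1.58, 1.19 to 2.10). Of these 3 genes, Srsf5 was again close to the Young level in the library labelled cKO.

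At the low end were Hnrnpc, Snrpb2, Hnrnph1 and Srsf6. Hnrnpc had 2643 reads in the library labelled cKO and 3870 in WT (ratio 0.671, 0.638 to 0.705). Snrpb2 had 95 and 133 reads (ratio 0.702, 0.534 to 0.920). Hnrnph1, which binds runs of guanines, had 301 and 419 reads (ratio 0.706, 0.607 to 0.820), and Srsf6 had 1006 and 1394 (ratio 0.709, 0.653 to 0.769). For all 4 genes the WT library was the highest of the 4.

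Snrpa1 was the 1 member with an adjusted p below 0.05 in the authors' deposited table for cKO over WT (1.54% of 65, against 1.74% of all genes lower), with adjusted p = 0.0411. It had 11 reads in the library labelled cKO and 45 in WT (ratio 0.240, 0.112 to 0.472), with 19 in Old and 33 in Young, and lay under the minimum of 100 reads. Snrpf was as thin, with 19 reads and 4 reads (ratio 4.67, 1.55 to 18.9). Of the other splicing genes 74 were tested and none rose or fell (against 2.52% and 1.71% of all genes). Of the 74, 38 were above 1 (51.4%, against 49.4% of all genes), with a median log2 ratio of -0.03.

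Erythroid markers differed in this pair, with 16117 RPM in the library labelled cKO and 8265 in WT over 12 genes, 10 higher and 1 lower, none at 0. The nuclear retained RNAs summed to 56.4 and 21.2 RPM with 1 of 5 higher. Platelet markers summed to 55546 and 61893, B cell markers to 333 and 347, monocyte and macrophage markers to 2324 and 3412, and T and NK cell markers to 51.7 and 51.0 with 1 lower. Neutrophil markers summed to 39.4 and 66.0, with 6 of 12 at 0 or not listed in the library labelled cKO and 5 of 12 in WT. Their part in the single-gene values was not tested.

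WT over Young sets 2 pools of wild-type mice of the same age against each other and gives a scale for differences between pools. It shares WT with the cKO pair and Young with the Old pair, so it is independent of neither, and these libraries sit in separate deposited tables. Of 46 members tested, 0 were higher (0.439% of all 6373 genes) and 1 was lower (2.17%, against 0.565% of all genes). That gene was Hnrnpa0, with 655 reads in WT and 1574 in Young (2.20-fold lower in WT, 2.01 to 2.41). The ratio was below 1 in 24 members (52.2%, against 50.3% of all genes) and above 1 in 22 (against 49.7%), with a median log2 ratio of 0.03, against -0.004 over all genes.

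Further members differed beyond counting error between these same-age pools. Hnrnpab had 275 reads in WT and 646 in Young (ratio 0.465, 0.402 to 0.537). Hnrnph1 had 419 and 240 reads (ratio 1.91, 1.62 to 2.25), and Srsf1 had 558 and 354 (ratio 1.72, 1.505 to 1.97). Srsf5 went the other way, with 372 and 689 reads (ratio 0.590, 0.519 to 0.670). Snrpb2 and Hnrnpc had ratios of 1.51 and 1.43, and Sf3a2, an SF3A subunit, had a ratio of 0.623. Hnrnpa0, Hnrnpab, Srsf5, Hnrnpc and Snrpb2 therefore varied between 2 wild-type pools of one age about as much as between the groups of the other pairs. Hnrnph1, Srsf1 and Sf3a2 differed more between these pools than in cKO over WT or Old over Young.

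Markers differed here too. Erythroid markers summed to 8265 RPM in WT and 21539 in Young, with 5 of 12 lower, and neutrophil markers to 66.0 and 30.6, with 2 of 12 higher. Their part in the values of these genes was not tested. Of 77 other splicing genes tested, none rose or fell (against 0.439% and 0.565% of all genes). Of the 77, 42 were below 1 (54.5%, against 50.3% of all genes).

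Snrpe, an Sm ring subunit, separated by table. It had 94 reads in the library labelled cKO and 82 in WT, against 15 in Old and 18 in Young. WT over Young was 4.98 (2.96 to 8.81), under the minimum of 100 reads. Its listed pseudogene Snrpert had 9, 10, 15 and 12 reads in the library labelled cKO, WT, Old and Young. Group and deposited table cannot be told apart for this gene.

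Sequence copies and overlaps limit several members. Of the 65, 24 had a copy at 95% identity or more over at least 200 bases of transcript, 16 shared exon bases with another gene, and 30 had neither. Hnrnpm shares 1169 exon bases on the same strand with March2, which had 46827 to 68913 reads per library, against 579 to 953 for Hnrnpm. Srsf4 and Hnrnpab share 1532 and 809 exon bases with genes on the opposite strand, and the use of strand in counting was not given in the sources used here. Of the 4 genes that fell in Old, Hnrnpa0 and Sf3a3 had neither, and Prpf19 had a copy with at most 2 reads in a library. Hnrnpdl had a copy, Gm11488 (95.4% identity over 324 bases), that was listed in neither deposited table. No reads of that copy could therefore be set beside those of Hnrnpdl.

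The annotated transcripts of these genes differ by role. Many SR genes are known to carry exons whose inclusion leads to nonsense-mediated decay (NMD) and lowers their own RNA. In the GENCODE annotation 9 of 11 SR genes (81.8%) had a transcript of the NMD class, against 49.2% of the 65 and 28.9% of 12276 protein-coding genes. A transcript with a retained intron was annotated for 73.8% of the 65, against 59.2% of protein-coding genes. The counts are per gene, so the share of each transcript in platelets was not measured here.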

How the data were processed

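RNA of pooled mouse platelets was measured in 4 libraries, 1 per group. The submitters' processing notes name HISAT2 2.0.5, featureCounts 1.5.0-p3, DESeq2 1.20.0, CASAVA and build mm10, without roles. Neither strand use nor the handling of shared reads was given in the sources used here. For each pair the authors deposited a table with a scaled signal per gene and library, their log2 fold change and their p-value, raw and adjusted. Per the file headers 4 further per-sample columns exist, which were not used. The deposited signal is a whole number of reads times a step per library. Dividing by it gave whole reads within 0.02 read for at least 99.93% of values, and these replaced the counts that the design had assumed. With 1 library per group the intervals cover counting error only. They take reads as independent, and amplified reads that carry no molecular identifier need not be.

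Library sizes were scaled by TMM for each pair (edgeR 4.0.16, R 4.3.3). Comparisons across the tables used the 14652 genes in both. Ratios have exact Clopper-Pearson 95% intervals (SciPy 1.17.1), and log2 medians used a pseudocount of 0.5 read. Ratios, intervals and read recovery were tested on simulated reads drawn as independent Poisson counts. That simulation held no spread between pools and could not test whether reads are independent. No test between groups was possible. Copies were found with BLAST 2.17.0 against GENCODE transcripts. Of the 65 genes, 60 had the same coordinates there as deposited.

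Genes were named by a rule: members past the 2-fold rule, the highest and lowest level per role, the 4 highest and 4 lowest ratios per comparison, members under 20 reads in all, other splicing genes past the rule, and Elavl1. Further genes were chosen after their values were seen, and some genes that the rule names are not reported here. The members, lists and rule were chosen with earlier results of these data known. Alternatives were other scalings of library size (DESeq2 1.42.0 for median-of-ratios), other minimums and bounds, the other wild-type library of 3 months, and members without copies or overlaps.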

Additional observations from a re-analysis of the deposited data

How the results depend on the processing

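No paired analysis was possible because each group has 1 library, and leaving out a replicate was likewise not possible. Among the counts and medians of members, the 0 higher members in Old over Young stayed at 0 under every alternative run.

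The 4 lower members in Old over Young became 6 with total reads (Hnrnpa3 and Sf3b3 added), 11 with equal platelet marker reads, 11 with a bound of 1.5-fold, 7 with a ratio of 2-fold and the interval not used, and 2 without members that have a copy or overlap, where fewer members were tested. They became 3 with WT in place of Young (6.82%, against 4.22% of all genes). The 11 at 1.5-fold were 25%, against 12.9% of all genes. For the other alternatives in this paragraph, other than the 1.5-fold bounds, the share of all genes called was not counted. Those counts of members are therefore not set against all genes. For cKO over WT, the 0 higher members became 1 (Hnrnpa0) with total reads and 1 with median-of-ratios size factors, and 2 with equal platelet marker reads (Hnrnpa0 and Hnrnpab), with a bound of 1.5-fold or with the interval not used. The 2 higher at 1.5-fold were 4.26% of members, below the 7.24% of all genes. The 0 lower members became 1 (Snrpa1) with 20 reads in the larger library or no minimum of reads. For WT over Young, the 0 higher members became 1 (Snrpe) with 20 reads or no minimum and 2 with a bound of 1.5-fold. The 1 lower member became 2 (Hnrnpa0 and Hnrnpab) with total reads, with equal platelet marker reads, with a bound of 1.5-fold or with the interval not used. At 1.5-fold the 2 higher were 4.35%, against 2.59% of all genes, and the 2 lower were 4.35%, against 2.73%.

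Equal platelet marker reads shifted the median log2 ratio of all genes to -0.48 in Old over Young, 0.19 in cKO over WT and -0.25 in WT over Young, and the member medians moved with it to -0.84, 0.24 and -0.21. Total reads shifted the all-gene median to -0.22 in Old over Young and -0.12 in WT over Young. A scaling adds 1 constant to every log2 ratio, so the distance of the member median to that of all genes (-0.36 in Old over Young, 0.05 in cKO over WT and 0.03 in WT over Young) cannot change with it. Members below 1 in cKO over WT were 20 of 47 in the main scaling (42.6%, against 50.6% of all genes) and 12 with equal platelet marker reads (25.5%, against 34.3%). In WT over Young they were 24 of 46 in the main scaling (52.2%, against 50.3%), 31 with total reads (67.4%, against 61.9%) and 36 with equal platelet marker reads (78.3%, against 74.1%). In Old over Young they were 40 to 44 of 44 under the 4 scalings (90.9% to 100%, against 51.5% to 77.6%). Adding the reads of listed copies, an alternative chosen after seeing the data, gave 5 lower members in Old over Young, with Hnrnpa3 added. Members under 100 reads are limited by depth, and so is any difference of less than 2-fold in them.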
